A study of Danio rerio with 2 samples.

Results

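The miRNA repertoire of control zebrafish embryos at 48 hpf (hours post fertilization) was described from the single small RNA library of embryos injected with the control morpholino MO-Ct. This is 1 of the 2 small RNA libraries of the series, and all miRNA entries listed for it were taken, 122 that name a single hairpin locus and 51 that join several. A morpholino is an antisense oligomer that blocks translation or splicing of the transcript it binds, and MO-Ct is the control oligomer of the study. The embryos were of the wild-type AB strain, received 1.5 ng of MO-Ct at the 1-cell stage by the labels, and 50 whole embryos were pooled for RNA. The study's own text describes MO-Ct at the summed amount of both Tbx5 morpholinos, so the dose differs between the sources. Because whole embryos were pooled, more cells of a type and more miRNA per cell cannot be told apart.

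miRNAs are short RNAs cut from hairpin precursors, and each guides repression of mRNAs that match its seed. Many are made mainly in a given tissue, such as muscle, nervous tissue or skin, so that the small RNA profile of a whole embryo is a sum over its tissues. Neighbouring hairpins are often cut from a shared primary transcript, and gene duplication in fish has left many miRNAs with several genomic copies that make the same mature RNA.

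The level of each miRNA was deposited as rpm, its reads scaled to a fixed total over all listed entries. Every value came out as a whole number of reads when 0.869 rpm was taken as 1 read, which set the depth at 1150157 reads. The values ranged over 40384-fold, with a minimum of 5.22 rpm and a median of 509.5 rpm, and 0 entries were listed at 0 rpm. Intervals are 95% Clopper-Pearson intervals of the read counts. They cover the counting error of reads only. Since PCR copies are not independent molecules, they can be too narrow for the number of molecules. With 1 library there was no replicate check of any level. An entry carries the name of its hairpin, so the 5′ and 3′ arms of a precursor could not be read apart.

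The library was dominated by few miRNAs. miR-9, expressed in the developing brain and in neural progenitors, was the highest entry with 210670 rpm (95% interval 209925 to 211416), which is 21.1% of all reads and 413 times the median entry. miR-206, a miRNA of skeletal muscle, followed with 143278 rpm (142638 to 143919). miR-21, a broadly expressed miRNA studied in inflammation and in zebrafish heart valve formation, was the third with 88456 rpm (87937 to 88976). These 3 entries took 44.2% of the reads (44.1 to 44.3), and the 10 highest took 69.5% (69.4 to 69.6).

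Only 4 entries were needed to reach 50% of the reads, the fourth being miR-430b with 59616 rpm. To reach 90% took 32 entries, and 99% took 96. The lower 87 entries together held 1.45% of the reads. Expressed as the number of equally abundant miRNAs that would give the same Shannon entropy, the repertoire corresponded to 25.2 miRNAs. By level, 2 entries were above 100000 rpm, 17 lay between 10000 and 100000 rpm, 49 between 1000 and 10000 rpm, 67 between 100 and 1000 rpm and 38 below 100 rpm. Above 200 rpm, which is 230 reads here, there were 116 entries with 99.6% of the reads. miR-23b with 202 rpm was the last above that level, and miR-153a and miR-196d, each with 186 rpm, were the next below it.

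**Figure D1:**
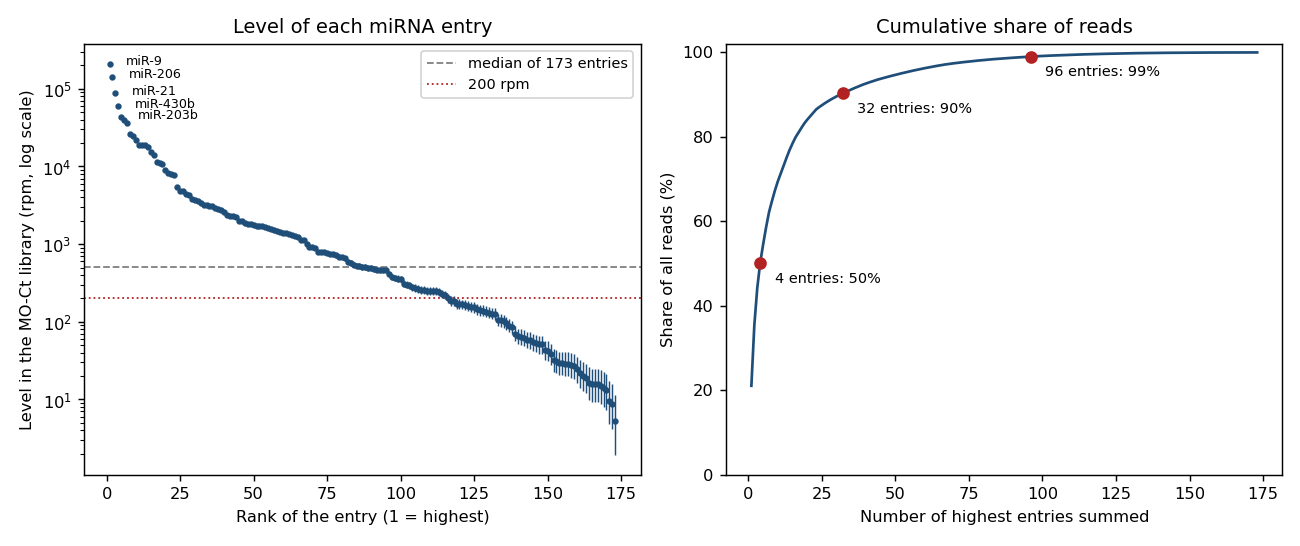
Levels of all miRNA entries in the MO-Ct library. Left, rpm on a log axis against rank, with 95% counting intervals as bars, the median of all entries dashed and 200 rpm dotted. Right, share of all reads in percent against the number of highest entries summed, with 50% reached by 4, 90% by 32 and 99% by 96 entries.

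The order of the highest entries was mostly resolved at this depth. Among the 25 neighbouring pairs from rank 1 downwards, 19 had a ratio whose counting interval excluded 1. After miR-430b came miR-203b with 43580 rpm, miR-430a with 40224 rpm and miR-184 with 36043 rpm. miR-1 with 26377 rpm was next, above miR-10c with 24817 rpm and miR-10b with 21852 rpm. miR-30e with 18950 rpm, miR-217 with 18853 rpm and miR-148 with 18710 rpm could not be ordered, as the ratio of miR-30e to miR-217 was 1.01 (0.986 to 1.02) and that of miR-217 to miR-148 was 1.01 (0.989 to 1.03). The pairs miR-92a and miR-30d, miR-183 and miR-203a, miR-203a and miR-22a, and miR-17a and miR-18c were not separated either. An interval that includes 1 does not show equal levels, and intervals for counting error would understate the spread between libraries.

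Known tissue-enriched miRNAs and families were set against each other in 15 lists, which hold 103 of the entries and 92.5% of the reads. These lists were chosen with earlier results of these data known, so this coverage is a description only. Since 0 entries were listed at 0 rpm, members of every list were above 0 by construction. The brain and spinal cord list had the largest sum with 22.3% of the reads (22.2 to 22.4), followed by the muscle list with 17.2% (17.2 to 17.3) and the miR-430 family with 11.8% (11.7 to 11.8). The ratio of the brain and spinal cord list to the muscle list was 1.29 (1.28 to 1.30). The inflammation list held 9.0%, the Hox cluster list 7.0% and the epithelial list 6.35%. The miR-17-92 cluster with its paralogs and miR-92b held 5.59%, the sensory organ list 5.48% and the miR-30 family 3.66%. The smaller sums were 2.31% for gut, liver and pancreas, 0.635% for the let-7 family, 0.590% for miR-125, miR-99 and miR-100, 0.364% for vessels, 0.225% for cartilage and fin mesenchyme and 0.0263% for blood. miR-212, miR-208, miR-142, miR-615, miR-98 and miR-731, which the lists also name, were not analysed here.

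**Figure D2:**
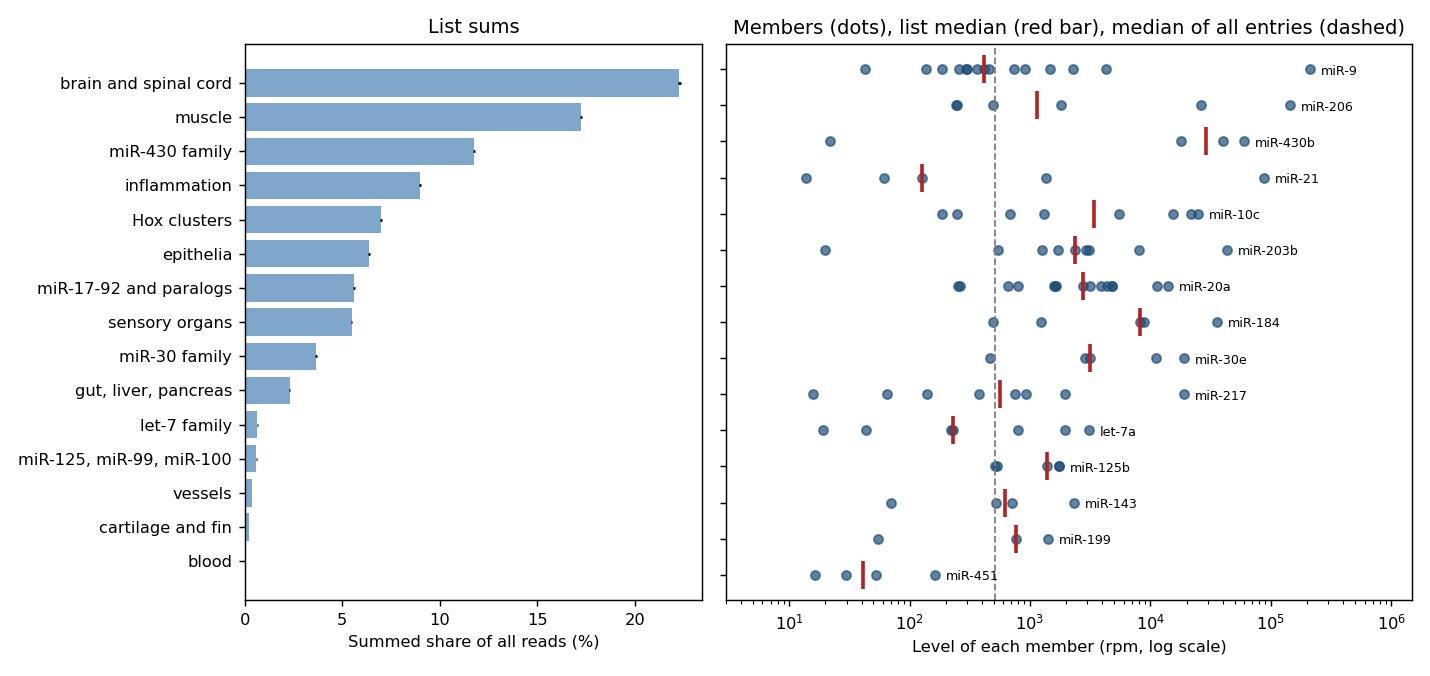
Lists of tissue-enriched miRNAs and families in the MO-Ct library. Left, summed share of all reads in percent with 95% counting intervals. Right, rpm of each member on a log axis with the highest member named, the list median as a red bar and the median of all entries dashed. The brain and spinal cord list has the largest sum, but its median of 415 rpm lies below the median of all entries, 509.5 rpm.

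The sum of the brain and spinal cord list rested on miR-9, which made up 94.6% of it (94.5 to 94.7). Of its 15 members 6 were above the median of all entries, and the list median was 415 rpm. miR-137, a neuronal miRNA, was its next member with 4249 rpm, so that miR-9 was 49.6 times as high (48.2 to 51.0). miR-219, known for its role in oligodendrocyte differentiation, had 2290 rpm. miR-218a, whose hairpins lie within the axon guidance genes slit2 and slit3, had 1469 rpm and its lettered form miR-218b 256 rpm. miR-128 had 902 rpm, and miR-7a had 740 rpm against 361 rpm for miR-7b. miR-124, the best known miRNA of differentiated neurons, had only 459 rpm (421 to 499.9), although its entry joins 6 hairpin loci. miR-9 was thus 459 times as high as miR-124 (421 to 501). The 3 forms of miR-153 had 415 rpm for miR-153c, 300 rpm for miR-153b and 186 rpm for miR-153a. miR-129 had 295 rpm and miR-138, which patterns the zebrafish heart, had 136 rpm. The lowest member was miR-132, an activity-induced neuronal miRNA, with 42.6 rpm from 49 reads.

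The muscle list had 6 members, all above 200 rpm, a level passed by 116 of all entries. It was also led by a single entry. miR-206 made up 83.1% of it (82.9 to 83.2) and miR-1, a miRNA of skeletal and cardiac muscle, 15.3%. miR-206 was 5.43 times as high as miR-1 (5.37 to 5.50). The miR-133 forms, whose hairpins neighbour those of miR-1 and miR-206, were far lower, with 1815 rpm for miR-133a, 490 rpm for miR-133b and 249 rpm for miR-133c. miR-499, which lies within the myosin heavy chain gene myh7ba, had 242 rpm from 278 reads, so that miR-1 was 109 times as high (97.0 to 123).

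The miR-430 family, which clears maternal transcripts in zebrafish after zygotic transcription starts, was still the third most abundant name at 48 hpf. miR-430b made up 50.7% of it, miR-430a with 40224 rpm 34.2% and miR-430c with 17834 rpm 15.2%. The remaining form, miR-430j, had 21.7 rpm from 25 reads. Those 3 abundant entries join 23, 23 and 21 loci. The let-7 family, known for its rise as development proceeds, was lower by comparison, the miR-430 family having 18.5 times its reads (18.1 to 19.0). Within let-7, let-7a had 3077 rpm, let-7c 1970 rpm and let-7d 789 rpm, whereas let-7e had 228 rpm, let-7g 221.7 rpm, let-7b 43.5 rpm and let-7f 19.1 rpm. miR-125b with 1744 rpm and miR-100 with 1737 rpm were at nearly the same level as each other. The hairpins of miR-100 neighbour let-7 hairpins, but of the 3 loci joined in miR-125b only a single locus does. miR-125c had 1379 rpm, miR-99 530 rpm and miR-125a 509.5 rpm. The let-7 list had 1.08 times the reads of the list of miR-125, miR-99 and miR-100 (1.04 to 1.11).

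In the Hox cluster list, all 4 forms of miR-10 were higher than all 4 forms of miR-196. Both miRNAs are mainly encoded inside Hox gene clusters and repress Hox mRNAs. miR-10c had 24817 rpm, miR-10b 21852 rpm, miR-10a 15449 rpm and miR-10d 5432 rpm. miR-196a had 1307 rpm, miR-196b 684 rpm, miR-196c 249.5 rpm and miR-196d 186 rpm. No form held a majority of this list, as miR-10c made up 35.5% of it (35.1 to 35.8). In the annotation of the GRCz12tu assembly, the miR-10c hairpin lies within hoxb3a, that of miR-10a within hoxb1b, and the hairpins of miR-10b within hoxd3a and hoxc3a. The miR-10d hairpin lies within no protein-coding gene of this annotation.

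The epithelial list held 9 entries, of which 8 were above the median of all entries, and its own median was 2379 rpm. miR-203b, of a miRNA that restrains the growth of epidermal progenitors, made up 68.6% of the list (68.3 to 68.9) and was 5.45 times as high as miR-203a with 8002 rpm (5.33 to 5.57). The miR-200 group, which represses the mesenchymal zeb factors, followed, with 3106 rpm for miR-141, 2929 rpm for miR-200a, 1694 rpm for miR-200b, 1265 rpm for miR-429 and 543 rpm for miR-200c. miR-205, a miRNA of stratified epithelia, had 2379 rpm. miR-429b was far lower, with 23 reads.

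All 5 entries of the sensory organ list were above 200 rpm, a level passed by 116 of all entries. The list median, 8132 rpm, was 15.96 times that of all entries. miR-184, a miRNA of lens and cornea, had 36043 rpm (35703 to 36385) and made up 65.8% of the list. miR-182 with 8884 rpm and miR-183 with 8132 rpm, both of hair cells and photoreceptors, were close to each other at a ratio of 1.09 (1.06 to 1.12). Their neighbour miR-96 had 497 rpm. miR-204, of lens and retinal pigment epithelium, whose 3 hairpins lie within trpm3, trpm1a and trpm1b, had 1229 rpm.

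In the list of gut, liver and pancreas, miR-217, listed for the pancreas, had 18853 rpm, 81.7% of the sum (81.2 to 82.1). Whole embryos were pooled, and whether its reads came from the pancreas was not tested. Its neighbours miR-216a and miR-216b had 925 and 748 rpm. miR-375, of endocrine pancreas, had 379 rpm, so that miR-217 was 49.7 times as high (45.2 to 54.8). The intestinal miR-192 had 1964 rpm, and miR-194a had 139 rpm and miR-194b 15.7 rpm. miR-122, by far the main miRNA of adult vertebrate liver, had 65.2 rpm (51.3 to 81.7) from 75 reads.

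Blood miRNAs were low. Of the 4 vessel entries 3 were above the median of all entries, which splits the entries evenly by definition. Among these 3, the interval of miR-126b (482 to 566 rpm) includes that median. miR-143, of smooth muscle, had 2329 rpm, whereas miR-145, with which it shares a transcript in mammals, had 70.4 rpm. The miR-143 hairpins were not matched to the annotation, so whether they neighbour miR-145 in zebrafish was not examined here. The endothelial miR-126 had 716 rpm and miR-126b, within egfl7, had 523 rpm, a ratio of 1.37 (1.23 to 1.52). The erythroid miR-451 had 163 rpm from 188 reads and the miR-144 hairpin next to it 16.5 rpm from 19 reads. miR-150, of lymphoid cells, had 53.0 rpm and the myeloid miR-223 29.6 rpm. All 4 blood entries were below the median of all entries, and the vessel list had 13.9 times the reads of the blood list (12.3 to 15.6). However, miR-143, whose entry joins 2 loci, made up 64.0% of the vessel list (62.6 to 65.5). The endothelial miR-126 was 4.38 times as high as miR-451 (3.73 to 5.16). For cartilage and fin mesenchyme, miR-199 had 1423 rpm, miR-140 of cartilage, within wwp2, had 771 rpm, and miR-214 had 54.8 rpm.

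The inflammation list was almost entirely miR-21, at 98.3% (98.2 to 98.3), and miR-21 is not restricted to immune cells. miR-146a, a feedback inhibitor of innate immune signalling, had 1365 rpm, so that miR-21 was 64.8 times as high (61.6 to 68.2). miR-146b had 127 rpm and miR-155, of activated immune cells, 61.7 rpm, and miR-462, which responds to virus infection in fish, had 13.9 rpm from 16 reads.

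The miR-17-92 cluster and its paralogs, known for their role in cell proliferation, filled their list more evenly than the brain and spinal cord list, which has as many entries. The miR-17-92 list also holds miR-92b with 1569 rpm, whose hairpin belongs to no set of neighbouring hairpins found here. All 15 entries were above 200 rpm, a level passed by 116 of all entries, and 13 were above the median of all entries. The highest was 56.0 times the lowest, against 4945 times in the brain and spinal cord list. miR-20a had 14116 rpm, miR-92a 11258 rpm, miR-17a 4809 rpm and miR-18c 4787 rpm, whereas miR-18b and miR-19d were lowest with 263 and 252 rpm. In the miR-30 family, miR-30e with 18950 rpm and miR-30d with 11138 rpm were above miR-30a with 3169 rpm and miR-30c with 2849 rpm, and miR-30b was lowest with 463 rpm.

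The 70 entries in no list held 7.48% of the reads, with a median of 168 rpm, against 509.5 rpm for all entries. Of the 70, 16 were above 1000 rpm. Over all entries, 2 were above 100000 rpm, 17 lay between 10000 and 100000 rpm and 49 between 1000 and 10000 rpm. Since the lists were chosen with earlier results of these data known, this comparison is a description only. The highest entries in no list were miR-148 with 18710 rpm, miR-181a with 10727 rpm and miR-22a with 7865 rpm. miR-103, within the pantothenate kinase gene pank2, followed with 3686 rpm, 43.3 times as high as its relative miR-107 with 85.2 rpm (35.4 to 53.4), which lies within pank1b. The other form, miR-107b within pank1a, had 58.25 rpm. The annotation of reads allowed 2 mismatches, and its part in this ratio was not tested.

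Reads were unevenly divided among the lettered forms of a miRNA, which are close relatives in sequence. The entries carry 104 names once the letter is left out, and 38 of these names have several forms, with 107 entries. In 19 of the 38 there are 2 forms, so that the highest cannot hold less than 50% of the reads of its name, and in 12 of these it held more than 80%. Of the 19 names with 3 or more forms, the highest form held more than 50% in 14 and more than 80% in 1, the median being 53.9%. The largest share of a highest form was that of miR-22a, 99.8%, with 7865 rpm for miR-22a and 15.7 rpm for miR-22b. Similarly, miR-135b had 2566 rpm against 278 rpm for miR-135c and 5.22 rpm for miR-135a, and miR-454b 2221 rpm against 160 rpm for miR-454a. By the ratio of the highest to the lowest form, the most even were miR-216 at 1.24, miR-126 at 1.37 and miR-107 at 1.46, each with 2 forms, while in miR-10, with 4 forms, the highest held 36.7%. The annotation allowed 2 mismatches, so reads of near-identical forms could have been divided between their names, and its part in these shares was not tested. Summed by name, the order was miR-9, miR-206, miR-430, miR-21, miR-10, miR-203, miR-30, miR-184, miR-1 and miR-217, and these 10 names held 79.7% of the reads.

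**Figure D3:**
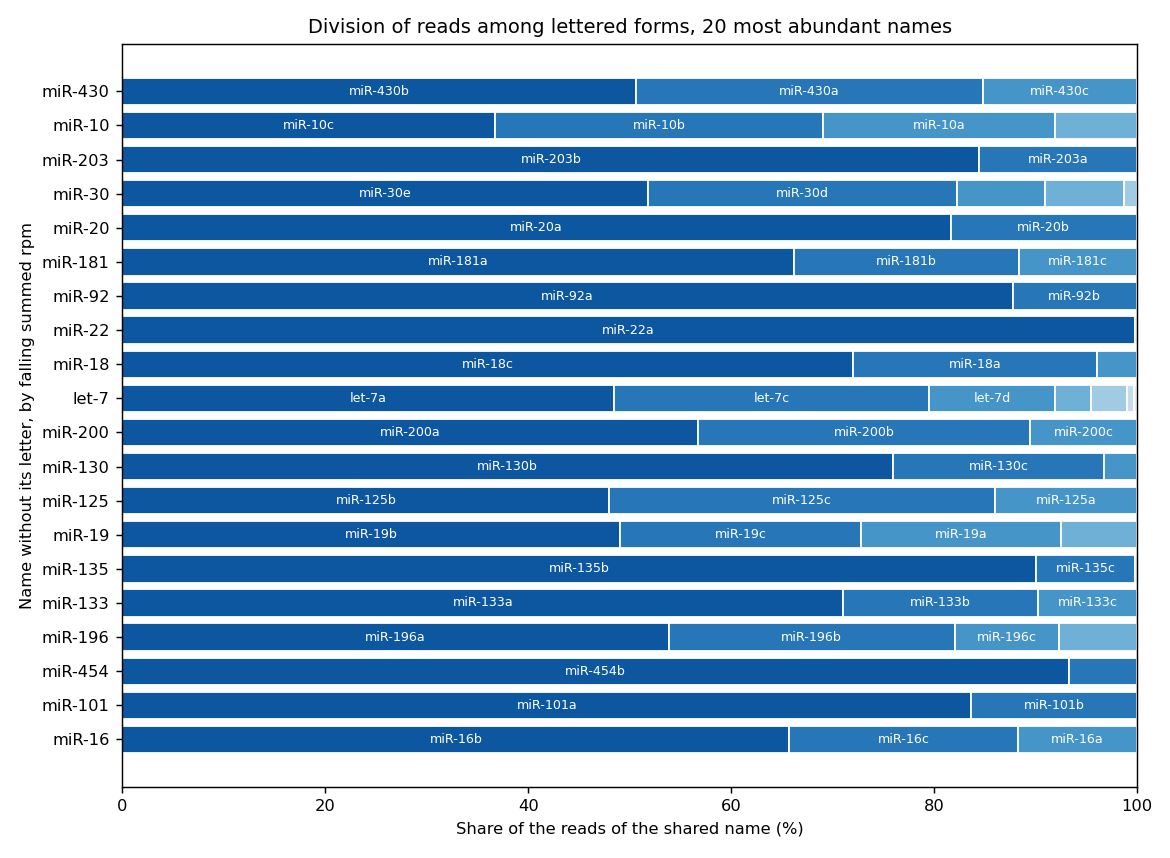
Division of reads among the lettered forms of the 20 most abundant names that have several forms, in percent of the reads of the name. Each segment is a form, in falling order from the left, and forms above 9% are labelled. miR-22a holds 99.8% of miR-22, whereas miR-10c holds 36.7% of miR-10.

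Several genomic copies were joined in a single entry where they make the same mature miRNA. All entries together name 312 hairpin loci, of which 190 belong to 51 joined entries and 122 to entries with a locus of their own. The joined entries held 73.7% of the reads (73.6 to 73.8). Their median level was 1307 rpm, against 330 rpm for entries of 1 locus, and they included 8 of the 10 highest entries. Copy number alone did not order the levels. Spearman's rho between the number of loci and rpm was 0.305 over all entries, which share 1 library and are no replicates, and 0.257 over the 169 entries other than miR-430. miR-9 joins 7 loci and had 210670 rpm, while miR-124 and let-7a join 6 each and had 459 and 3077 rpm. miR-338 and miR-365, with 4 loci each, had 64.3 and 51.3 rpm. The most abundant entries of 1 locus were miR-203b, miR-10c, miR-30e and miR-148. Divided evenly over its loci, miR-9 came to 30096 rpm per locus, below miR-206 with 71639 rpm, miR-21 with 44228 rpm and miR-203b with 43580 rpm, while miR-430b fell to 2592 rpm per locus. This even division is arithmetic, since the reads cannot be assigned to a copy.

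**Figure D4:**
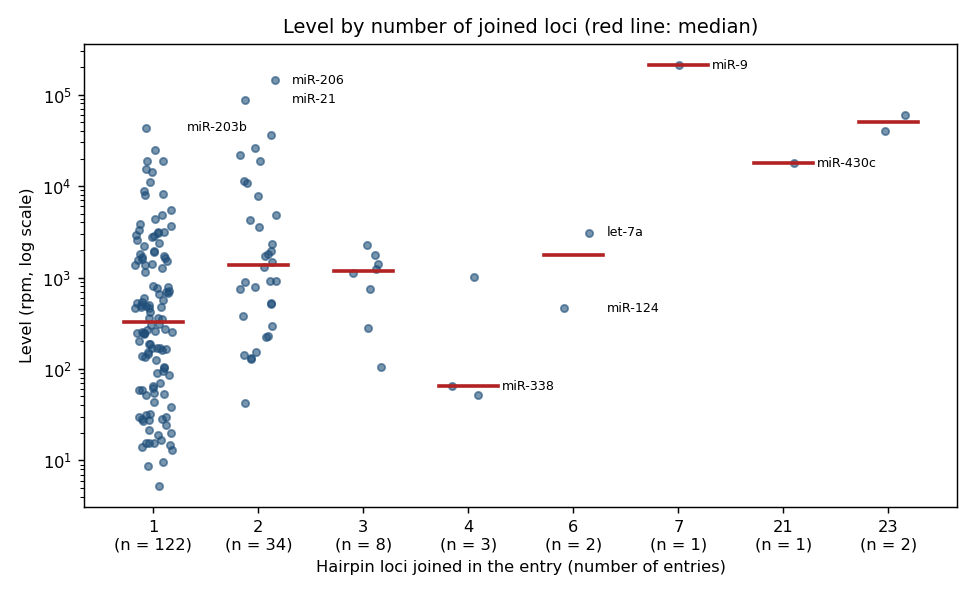
Level of each entry in rpm on a log axis, grouped by the number of hairpin loci joined in the entry, with the number of entries in brackets and the median as a red line. Entries of 1 locus have a median of 330 rpm and those of 2 loci 1388 rpm, but the 3 entries of 4 loci have a median of 64.3 rpm.

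Neighbouring hairpins, which can share a primary transcript, had unequal levels. Of the 312 loci, 292 (93.6%) matched the RefSeq annotation of GRCz12tu, and 40 sets of different entries had hairpins that follow one another within 10000 bases with 0 other genes starting between them. Joined entries also hold reads of copies elsewhere, so the 12 sets in which every member has a single locus are the plainest. In these the highest member was 1.21 to 155 times the lowest, with a median of 7.94, and in 11 of 12 the counting interval of this ratio excluded 1. Members were ordered by their reads first, so a ratio below 1 could not occur. Sets of entries that are not neighbours were not compared, so this count does not show that neighbours differ more or less than other entries. In the set of miR-141, miR-200c and miR-429b, which lies within ppil1, miR-141 was 155 times as high as miR-429b (103 to 245). miR-30d was 24.1 times as high as miR-30b (22.1 to 26.3), and both lie within zfat. miR-182 was 17.9 times as high as miR-96 (16.4 to 19.5), and miR-192 14.1 times as high as miR-194a (12.02 to 16.7).

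Within the replication gene mcm7, miR-93 had 4368 rpm and miR-25 2748 rpm, but miR-19d between them had 252 rpm, a ratio of highest to lowest of 17.3 (15.4 to 19.6). In the paralogous set led by miR-18c with 4787 rpm, miR-363 had 3857 rpm, miR-20b 3172 rpm and miR-19c, again the lowest, 799 rpm. In the miR-17-92 cluster, miR-19a with 658 rpm and miR-18a with 1598 rpm and miR-19b with 1644 rpm were the lowest, and miR-20a was 21.4 times as high as miR-19a (19.9 to 23.1). A form of miR-19 was therefore the lowest member of each of these 3 sets. A further set, of miR-92a, miR-17a and miR-18b, holds no miR-19 form. There miR-18b was the lowest with 263 rpm, and miR-92a was 42.7 times as high (38.1 to 48.0). The miR-17a and miR-92a entries each join a hairpin of this set and a hairpin of the miR-17-92 cluster. The same reads were therefore counted in both sets, and the 42.7-fold ratio includes any reads of the cluster copy. miR-20a and miR-19a join no further copy.

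Other neighbours were much closer. miR-200a, miR-200b and miR-429 within ttll10 spanned 2.32-fold (2.18 to 2.46). miR-221 with 572 rpm and miR-222 with 364 rpm, which repress a cell cycle inhibitor in mammals, had a ratio of 1.57 (1.39 to 1.78). miR-16a and miR-15c, which lie within both kpna4 and smc4 in the annotation, had a ratio of 1.73 (1.43 to 2.11). miR-457a and miR-15b had a ratio of 1.50 (1.31 to 1.72). miR-34c with 34 reads and miR-34b with 28 reads were not separated at this depth, at a ratio of 1.21 (0.715 to 2.08).

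**Figure D5:**
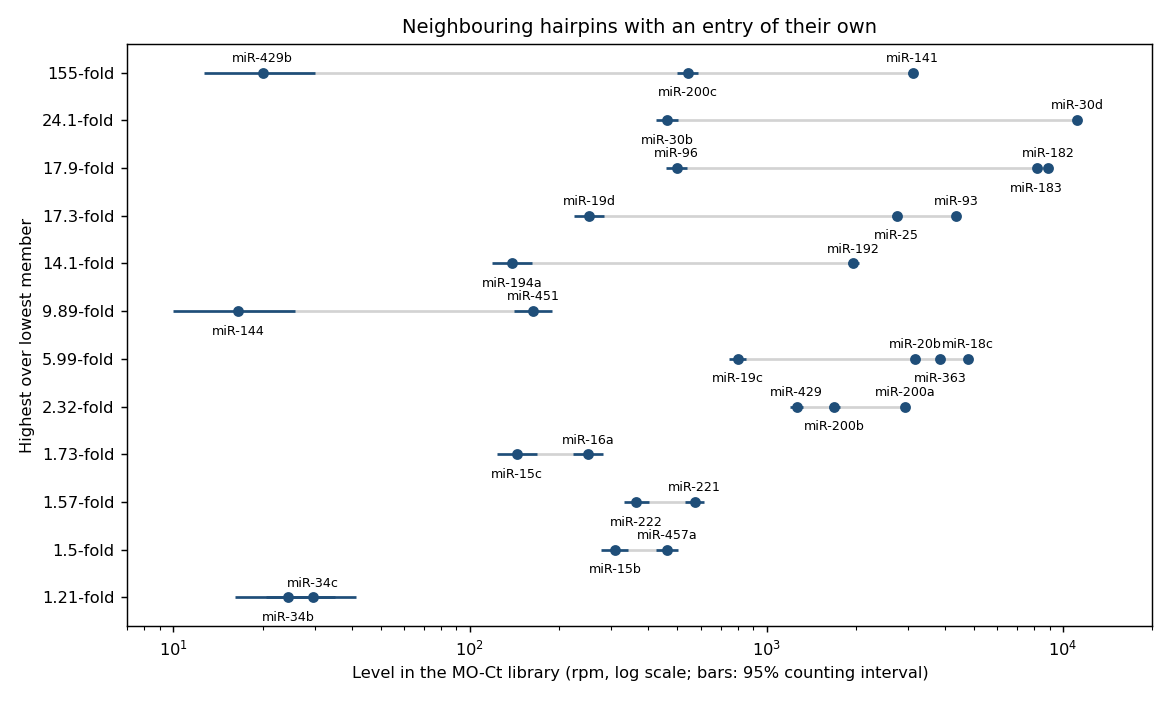
Levels of neighbouring hairpins in the 12 sets in which every member has a locus of its own, in rpm on a log axis with 95% counting intervals. Each row is a set, ordered by the ratio of its highest to its lowest member, which runs from 155 for miR-141 and miR-429b to 1.21 for miR-34c and miR-34b.

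The miR-206 sets were the most unequal of those with joined entries. Each of the 2 miR-206 hairpins has a miR-133 hairpin next to it, miR-133b or miR-133c, so that all copies are counted on both sides. miR-206 had 143278 rpm and miR-133b and miR-133c together 739 rpm, a ratio of 193.9 (181.2 to 207.6). For miR-1 and miR-133a, with 2 loci each, the ratio was 14.5 (13.9 to 15.2). miR-217 was 25.2 times as high as its neighbour miR-216b (23.6 to 27.02), and miR-199 was 26.0 times as high as miR-214 (20.2 to 34.0), although the entry of miR-199 joins 3 loci. In the sets of miR-23, miR-27 and miR-24 forms, miR-27b had 1517 rpm and miR-24, which joins 4 loci, 1006 rpm, whereas miR-23b had 202 rpm, miR-27a 169 rpm, miR-23a 105 rpm and miR-27d 15.7 rpm. miR-16b was 9.18 times as high as its neighbour miR-15a (7.85 to 10.8) and miR-16c 3.15 times (2.65 to 3.75). In each of these pairs the miR-16 form was the higher. The miR-15a entry joins the hairpins next to both, so both ratios divide by the same reads. miR-181a was 2.995 times as high as miR-181b (2.89 to 3.10).

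Many hairpins lie within protein-coding genes, whose strand was not given in the table used. For 163 entries all loci matched, and in 72 of these all hairpins lay within a protein-coding gene, in 71 none did, and in 20 some did. The median level was 463 rpm with all hairpins inside a gene, 490 rpm with none inside and 1372 rpm where some were inside, and the shares of reads were 17.1%, 29.7% and 40.3%. Only entries that join several loci can have some hairpins inside and some outside. Joined entries had a median of 1307 rpm, against 330 rpm for entries of 1 locus. The group with some inside includes miR-9 with 21.1% of all reads and miR-206 with 14.3%. A few pairs in related genes are given as examples. miR-26a, in the phosphatase genes ctdsp1, ctdsplb and ctdspla, had 1122 rpm, and miR-26b, in ctdsp2, had 590 rpm. The forms of miR-153, in ptprna, ptprnb and ptprn2, stayed within 2.23-fold of each other. miR-455b, in the collagen gene col27a1a, had 259 rpm, against 32.2 rpm for miR-455 in col27a1b, a ratio of 8.05 (5.71 to 11.7).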

How the data were processed

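The authors sequenced small RNA libraries (1 µg of total RNA, 13 PCR cycles) on an Illumina GAIIx, trimmed the adaptor, grouped reads of 18 to 33 nt, kept sequences with at least 30 occurrences and annotated them to zebrafish miRBase version 16.0, allowing 2 mismatches and 2 extra bases at each end. They deposited rpm, of which the MO-Ct column was used. A rpm is a share of reads; unequal ligation or amplification of sequences was not tested. Reads were recovered by trying totals from 50000 to 3000000 and taking the smallest at which all values were whole within their rounding (0.005 rpm) and summed to the total; this step was tested on simulated data. No test between samples was possible with 1 library. Members and lists were chosen with earlier results of these data known. Named entries were the 20 highest, and the 2 highest and the lowest of each list. The entries joining most loci, the 5 lowest and those next to 200 rpm were named too. Of the neighbouring sets only a part is described, and the sets with miR-130 and miR-301 forms, for example, are left out. Further list members are given for context. The sets of neighbouring hairpins were rebuilt from the annotation after the values were seen, as the planned list joined some hairpins that are not neighbours. Neighbours and host genes came from the RefSeq table of GRCz12tu, whose build is not that of the files, so no coordinates are given. Sequences and seeds were not used here. Python 3.11.15 was used with pandas 2.3.3, Matplotlib 3.10.9, SciPy 1.17.1 and NumPy 2.4.6.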

Additional observations from a re-analysis of the deposited data

How the results depend on the processing

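No paired analysis was possible because there is 1 library, and no replicate could be left out. Grouping by mature seed and by sequence features was not run, as no mature sequences were used. Keeping entries of at least 30 reads left all 19 values within their counting interval or count. The 14 entries removed held 0.0214% of the reads, so most values could hardly move. With levels summed over related names, the 10 highest held 79.7% and 90% of the reads took 20 names. Without the 3 highest entries, the highest held 10.7% and the 10 highest 55.4%. Then 50% of the reads took 9 entries and 90% took 46, against 4 and 32 with all entries. The list shares were then 2.17% for brain and spinal cord, 5.23% for muscle, 21.1% for miR-430, 0.281% for inflammation, 12.5% for Hox clusters, 11.4% for epithelia, 10.0% for miR-17-92, 9.83% for sensory organs, 6.56% for miR-30, 4.14% for gut, liver and pancreas, 1.14% for let-7, 1.06% for miR-125, miR-99 and miR-100, 0.652% for vessels, 0.403% for cartilage and fin and 0.0471% for blood. These changes follow from the smaller total and the loss of miR-9, miR-206 and miR-21. Each list without its own highest member came, in the same order, to 1.21%, 2.92%, 5.81%, 0.157%, 4.52%, 1.99%, 4.18%, 1.87%, 1.76%, 0.424%, 0.327%, 0.416%, 0.131%, 0.0826% and 0.00991%, so the brain and spinal cord list fell to place 8 and miR-430 came to place 1. The share of joined entries was 52.8% without the 3 highest entries and 47.4% with each level divided evenly over its loci. An order of lists by their sums is therefore an order of few entries.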

Other observations

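The lowest entries also include miRNAs with a known tissue. In all, 14 entries had fewer than 30 reads, although the sources give a minimum of 30 occurrences per sequence. The lowest were miR-135a with 6 reads, miR-489 with 10, miR-723 with 11, miR-187 with 15 and miR-462 with 16. All 14 entries under 30 reads together held 0.0214% of the reads. miR-489, which lies within calcr and keeps muscle stem cells quiescent in mice, had 8.69 rpm (95% interval 4.17 to 15.99), while miR-206 of differentiated muscle was the second highest entry.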
